A study of Homo sapiens with 6 samples.

Results

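The 10 genes described here encode interleukins, a growth cytokine of the same signalling family and partner proteins of interleukins. They are IL6, IL11 and LIF, IL7 and IL15 with the receptor chain IL15RA, IL1A and IL1B, and IL18 with its binding protein IL18BP. They were taken by name, through their Ensembl IDs, from a table of 62710 genes, and all 10 were found. The cells were HT1080, a human line derived from a fibrosarcoma, either left untreated or treated with 20 ng/mL human IFNβ for 24 h, with 3 libraries per group and no other agent or genetic change named for either group. The cells are a single line grown in culture without immune or stromal cells. The methods describe in vitro results in general as coming from independent biological replicates, while the labels do not say whether the 3 libraries of a group came from separate cultures. The p-values measure the spread between these libraries. The labels name human IFNβ, as does the general cell culture description, whereas the description of the RNA sequencing names the mouse protein.

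IL6, IL11 and LIF are ligands whose receptors share the signal-transducing chain gp130, encoded by IL6ST, and they signal largely through STAT3. IL7 and IL15 signal through receptors that contain the common gamma chain and maintain lymphocytes and natural killer cells. IL15 is unusual in being held on the cell surface by IL15RA and presented to neighbouring cells. IL-1α, IL-1β and IL-18 are made without a classical signal peptide, and the precursors of IL-1β and IL-18 are cut by caspase-1 to become active. IL-18BP is a secreted decoy that captures IL-18. Fibroblasts and the tumors derived from them are known sources of IL6, IL11 and LIF.

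The depth and the response of the cells were checked first. The authors' FPKM (fragments per kilobase of gene, scaled to library size) rested on between 22848104 and 32915500 fragments per library, and the fragments behind each value could be recovered. The interferon-stimulated genes IFIT1, MX1, ISG15 and OAS1, used as a check, were each called higher after IFNβ, IFIT1 from 0.916 ± 0.0380 to 413 ± 3.30 FPKM (n = 3, S.D.). Of 9 fibroblast markers, VIM and SPARC were abundant (399 ± 23.9 and 267 ± 8.76 FPKM in untreated cells, S.D., n = 3), while LUM was listed at 0 in the untreated libraries and THY1 and COL1A2 did not reach a mean of 0.1 FPKM. The summed FPKM of 6 leukocyte markers lay between 0.0916 and 0.315 in the untreated libraries and between 0.136 and 0.408 after IFNβ, none of them being at 0 in every library. The 3 endothelial markers summed to at most 0.441 FPKM in any library. Of 5 epithelial markers, KRT8 and KRT18 were abundant and KRT8 was called higher, whereas EPCAM, CDH1 and KRT19 stayed under the filter. The part of these marker genes in the results below was not tested.

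The promoters of the members show which of them carry letters that interferon-activated or inflammatory factors are known to recognise. RefSeq (GRCh38.p14) windows from 250 bases before to 50 bases after a start site were at hand for 6 of the 10 genes (IL6, IL11, IL15RA, IL1A, IL1B and IL18BP), 13 windows in all. IL7, IL15, LIF and IL18 had no entry. The sequences below are written 5′ to 3′ on the strand of the gene, with the matched letters in capitals. They are a selection of the stretches that hold a match to an interferon, NF-kB or AP-1 motif. Stretches around the gamma-activated site, a motif described below, are not printed. Stretches that lie in an annotated exon are limited to 30 bases.
IL18BP (chr11:71999540-71999569, plus strand): gttaaaaagtGAAAGTGAAAtagagggtcg
IL15RA (chr10:5977586-5977615, minus strand): aagcaaaagcGAAAGCGAAtgcgactggcg
IL6 (chr7:22726950-22727146, plus strand): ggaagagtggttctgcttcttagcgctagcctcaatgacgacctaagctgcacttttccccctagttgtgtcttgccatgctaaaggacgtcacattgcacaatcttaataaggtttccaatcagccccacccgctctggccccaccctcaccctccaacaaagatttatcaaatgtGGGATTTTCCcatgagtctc
IL11 (chr19:55370464-55370713, minus strand): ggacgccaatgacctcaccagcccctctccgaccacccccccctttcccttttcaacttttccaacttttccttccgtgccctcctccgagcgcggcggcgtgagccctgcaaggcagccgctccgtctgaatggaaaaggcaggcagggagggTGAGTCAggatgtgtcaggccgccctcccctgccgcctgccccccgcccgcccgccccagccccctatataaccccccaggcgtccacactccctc
IL1A (chr2:112784437-112784466, minus strand): tcattggcgttTGAGTCAgcaaaggtattg

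In the IL18BP stretch the capitals are the core of the interferon-stimulated response element (ISRE), searched on both strands as GAAA, any 2 bases and GAAA. The match lies 67 to 58 bases before 1 of the 4 RefSeq start sites of IL18BP, inside a stretch that GENCODE release 29 places in an exon of another transcript of the gene. IL18BP was the only 1 of the 6 genes with this core, which 4.38% of the 27305 genes in the promoter table hold in at least 1 window. The IL15RA stretch holds a match that is 1 letter shorter (GAAANNGAA), a form added after the sequences had been seen. This shorter form is present in 3 of the 6 genes (IL15RA, IL18BP and IL6) and in 9.86% of all genes. The gamma-activated site, searched as TTCNNNGAA, was found in 3 genes (IL15RA, IL18BP and IL1B), against 9.38% of all genes. Shares per gene are not fully alike, since the 6 genes have 13 windows, against 35116 windows for all 27305 genes. By window, the ISRE core was in 1 of the 13 against 3.57% of all windows, and the gamma-activated site in 3 against 7.66%.

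In the IL6 stretch the capitals mark an NF-kB motif of 10 letters (GGG, any 2 bases and TTTCC), which lies 73 to 64 bases before the start site. This form was also added after the sequences had been seen. It is in 1 of the 6 genes and in 2.33% of all genes, whereas the form searched first, GGGNNTTCC, is in none of the 6 and in 7.95% of all genes. The capitals in IL11 and IL1A are the AP-1 motif TGANTCA, a palindrome, which was found in IL11, IL15RA and IL1A, against 9.37% of all genes. By window it was in 6 of the 13 against 7.71% of all windows, with some matches shared by overlapping windows. These letters are a description of the windows and do not show that a factor binds there. The map of motif matches gives their positions in all 13 windows.

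**Figure D1:**
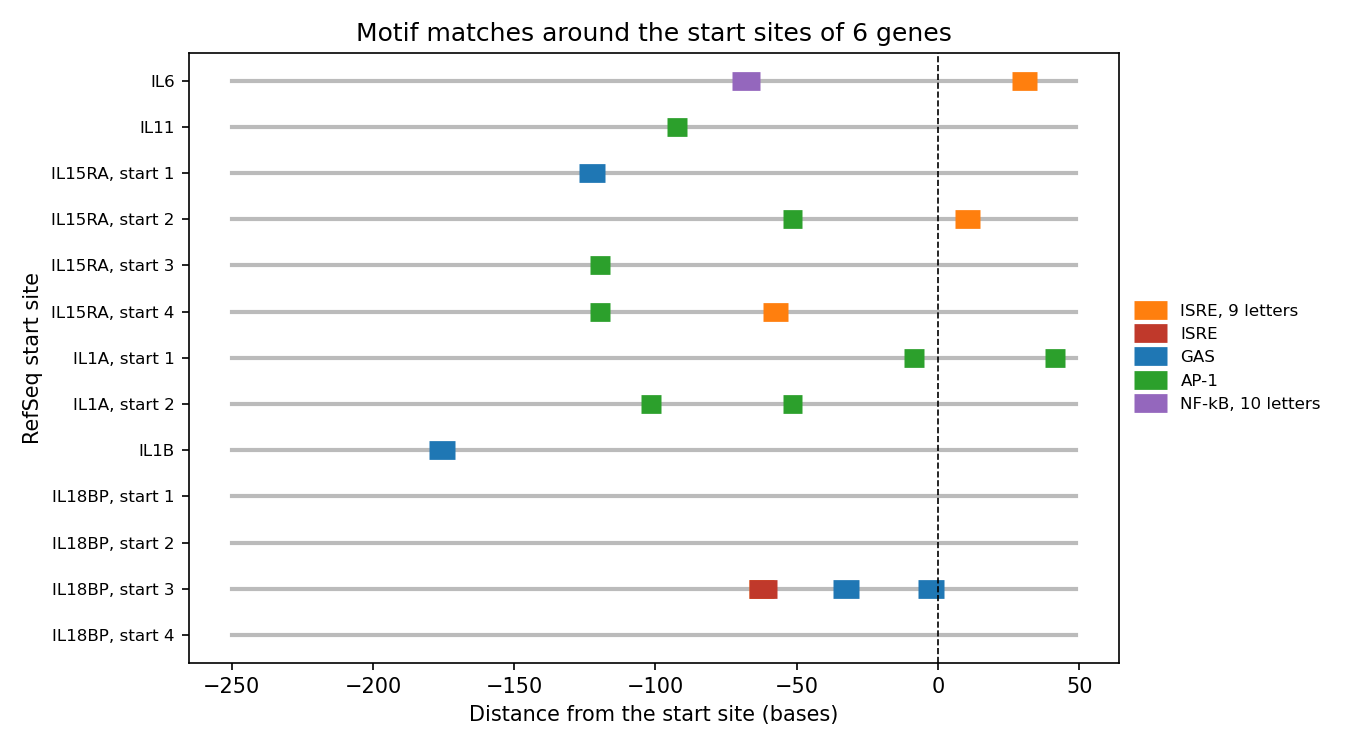
Motif matches in the 13 RefSeq windows of 6 genes, with the distance from the start site in bases on the x axis and a line for each start site. Colored blocks are matches on either strand, the dashed line is the start site, and the ISRE core (red) is seen only at the third start site of IL18BP.

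Of the 10 genes, 6 were called higher after 24 h of IFNβ and none lower. The 6 were IL6, IL7, IL15, IL15RA, IL18 and IL18BP. A gene was called with limma when its Benjamini-Hochberg adjusted p-value over all 20716 genes tested was under 0.05 and its absolute log2 fold change of FPKM + 0.1 was at least 1. By this rule 3.49% of all genes tested were called higher and 0.739% lower, 4.22% in all. At an unadjusted p-value under 0.05, 7 of the 10 were higher and 2 lower, and limma-voom on the recovered fragments also called 6 higher and none lower. The shares of all genes beside these counts are not given here. By the adjusted p-value alone, 6 of the 10 were higher and 2 lower, against 15.2% and 17.5% of all genes tested, 32.7% in all. The median log2 fold change of the 10 genes was 1.09, against 0.00017 for all genes tested. Libraries of the 2 groups did not overlap for 9 of the genes, 7 of them higher and 2 lower, whereas 22.3% and 24.3% of all genes tested separated in these directions, 46.6% in all. With 3 libraries against 3, an exact two-sided permutation test of a single gene cannot give a p-value under 0.10. This scale understates the change where FPKM is low, and 5 of the 6 calls were lost with a pseudocount of 1, which left IL15RA.

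**Figure D2:**
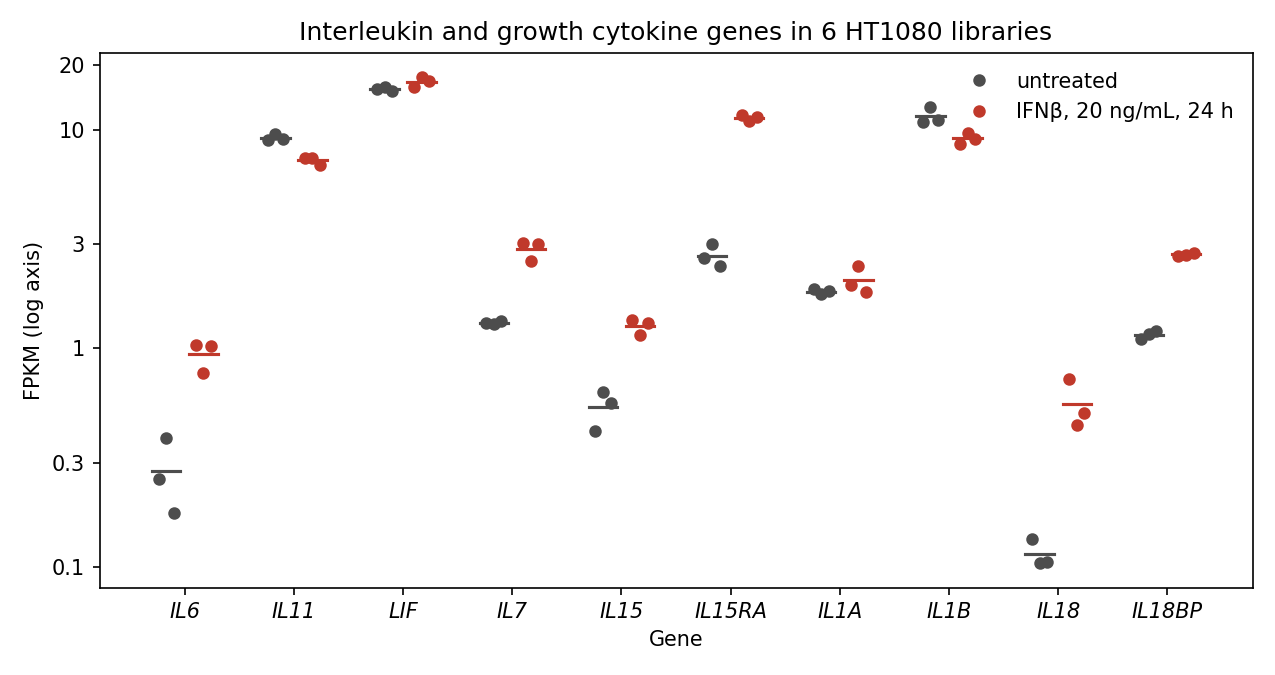
FPKM of the 10 genes in each of the 6 HT1080 libraries on a log axis, with a point per library and a bar at the group mean. Untreated libraries are gray and IFNβ-treated libraries red; the groups overlap only for IL1A.

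Per length, LIF was the most abundant of the 10 genes in both groups. In untreated cells the order by mean FPKM was LIF, IL1B, IL11, IL15RA, IL1A, IL7, IL18BP, IL15, IL6 and IL18, from 15.5 ± 0.297 FPKM for LIF down to 0.114 ± 0.0174 FPKM for IL18 (n = 3, S.D.). No neighbours in that order overlapped between libraries. After IFNβ, IL15RA stood second and IL7 and IL18BP had moved above IL1A. IL7 (2.86 ± 0.293 FPKM) and IL18BP (2.70 ± 0.0438 FPKM, n = 3, S.D.) were then the only neighbours whose libraries overlapped. FPKM depend on the gene lengths that the authors used, which differ from the exon lengths of GENCODE release 29 most for IL6 (4321 against 2069 bases) and IL18BP (5851 against 4323 bases).

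Of the 3 ligands of the gp130 family, IL6 was called higher and IL11 and LIF were not called. IL6 (ENSG00000136244), a pleiotropic inflammatory cytokine encoded on chromosome 7 from 22725884 to 22732002, was at 0.253, 0.390 and 0.176 FPKM in the untreated libraries and at 1.04, 0.769 and 1.03 FPKM after IFNβ. Every treated library lay above every untreated one. These levels rested on 25, 50 and 25 fragments against 138, 83 and 128. The mean rose 3.46-fold, from 0.273 ± 0.108 to 0.944 ± 0.152 FPKM (n = 3, S.D.), with a log2 fold change of 1.51 (SE 0.25, limma adjusted p = 0.0044). IL6 is among the genes that the study picked out from these same libraries, so its rise is not independent evidence. Its exons share 428 bases with those of AC073072.1 on the other strand, which was at 0.115 ± 0.0449 and 0.149 ± 0.0664 FPKM (n = 3, S.D.).

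IL11 (ENSG00000095752), on chromosome 19 from 55364389 to 55370463, encodes a cytokine linked to fibroblast activation and matrix production. It had 9.09, 9.64 and 9.10 FPKM in the untreated libraries and 7.46, 7.44 and 6.98 FPKM after IFNβ. All 3 treated libraries were below the untreated ones, by a small margin. The log2 fold change was -0.34 (95% interval -0.44 to -0.24, limma adjusted p = 0.0012), so IL11 passed the p-value threshold and not the fold threshold. Without the fold threshold, 17.5% of all genes tested were lower and 15.2% higher, 32.7% in all, and of the 10 genes IL11 and IL1B were lower.

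LIF (ENSG00000128342), on chromosome 22 from 30240447 to 30246851, encodes a ligand known for keeping stem cells undifferentiated and for its secretion by many tumors. It had 15.4, 15.8 and 15.2 FPKM in the untreated libraries against 15.9, 17.5 and 16.8 FPKM. The groups only just failed to overlap. The log2 fold change was 0.11 (95% interval 0.02 to 0.21, limma adjusted p = 0.079) and LIF was not called, with at least 1363 fragments in each library. The interval leaves out a rise of the size seen for IL6. The exons of LIF share 175 bases with AC004264.1 on the other strand, which was at 1.65 ± 0.0795 and 2.15 ± 0.332 FPKM (n = 3, S.D.).

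LIF and IL11 were far more abundant than IL6, and the summed FPKM of the 3 ligands stayed between 24.4 and 25.8 in all 6 libraries. IL6 made up 1.02%, 1.51% and 0.718% of that sum without IFNβ, and 4.26%, 2.99% and 4.13% with it. The share of IL11 lay between 36.7% and 37.3% in untreated cells and between 28.1% and 30.6% after IFNβ. LIF took between 61.2% and 62.3% before and between 65.1% and 68.1% after. For each of the 3 shares the groups did not overlap. The shares add up to the whole in each library and come from the FPKM given above, so these are not 3 further separations.

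Their receptor chains were measured in a list of 6 genes, of which 4 were tested, none was called in either direction and 3 had an adjusted p-value under 0.05. At an unadjusted p-value under 0.05 there were also 3, and limma-voom called none. The shares over all genes tested were 4.22% called and 32.7% with an adjusted p-value under 0.05. IL6ST, the shared gp130 chain, had 33.2 ± 0.434 FPKM in untreated cells and 28.0 ± 0.455 FPKM after IFNβ (n = 3, S.D.), a log2 fold change of -0.25 (limma adjusted p = 0.00029). OSMR, the oncostatin M receptor chain, had 32.4 ± 0.943 and 38.0 ± 0.964 FPKM. LIFR, the partner of gp130 for LIF, had 2.30 ± 0.0943 and 2.12 ± 0.104 FPKM, with an adjusted p-value of 0.22. IL6R, the chain that binds IL6, was picked out after its values were seen, with 1.77 ± 0.146 and 0.930 ± 0.0583 FPKM (n = 3 per group for these genes, S.D.). Its log2 fold change was -0.86 (limma adjusted p = 8.0e-04), short of the fold threshold.

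IL7 (ENSG00000104432), on chromosome 8, encodes a cytokine that stromal cells supply for lymphocyte survival. It was at 1.30, 1.29 and 1.34 FPKM in the untreated libraries and at 3.04, 2.53 and 3.02 FPKM after IFNβ. All 3 treated libraries were well above the untreated ones. The mean rose 2.18-fold, from 1.31 ± 0.0272 to 2.86 ± 0.293 FPKM (n = 3, S.D.), with a log2 fold change of 1.06 (SE 0.09, limma adjusted p = 0.00024), and the call was lost with quantile normalization, at a log2 fold change of 0.9997. The exons of IL7 share 231 bases with AC083837.2, a noncoding gene on the other strand that went from 0.156 ± 0.0859 to 1.13 ± 0.102 FPKM (n = 3, S.D.), and 322 bases with ZC2HC1A, which stayed at 2.17 ± 0.175 and 2.02 ± 0.109 FPKM. Whether the counting used strand is not given in the sources used here, so reads from the shared bases cannot be told apart.

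IL15 and IL15RA encode the ligand and the chain that presents it, and both rose. IL15 (ENSG00000164136), on chromosome 4 from 141636599 to 141733987, had 0.417, 0.633 and 0.563 FPKM in the untreated libraries and 1.36, 1.15 and 1.31 FPKM after IFNβ. The treated libraries were all higher, and untreated replicate 1 was the lowest of the 6. The mean rose 2.37-fold, with a log2 fold change of 1.12 (SE 0.16, limma adjusted p = 0.0024). Without that library the log2 fold change was 0.97 and IL15 was no longer called.

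IL15RA (ENSG00000134470), on chromosome 10 from 5943639 to 5978187, showed the largest rise of the 10 genes by log2 fold change of FPKM + 0.1. It had 2.59, 3.01 and 2.40 FPKM in the untreated libraries and 11.7, 11.1 and 11.5 FPKM after IFNβ. The treated libraries lay close together and far above the untreated ones. The mean rose 4.29-fold, from 2.67 ± 0.315 to 11.5 ± 0.327 FPKM (n = 3, S.D.), with a log2 fold change of 2.07 (SE 0.08, limma adjusted p = 1.1e-05). IL18 stood above it on the ratio of mean FPKM and on the log2 fold change with a pseudocount of 0.01 (2.17 against 2.10) or with limma-voom (2.24 against 2.11). The exons of IL15RA share 151 bases with AL137186.2 on the same strand, which was at 0.181 ± 0.0608 and 0.158 ± 0.0505 FPKM (n = 3, S.D.). IL15RA kept its call in all 16 other settings, with log2 fold changes between 1.77 and 2.15.

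The FPKM of IL15RA divided by that of IL15 went from 6.21, 4.76 and 4.26 in the untreated libraries to 8.65, 9.62 and 8.80 after IFNβ. The groups did not overlap, and the exact two-sided permutation p-value was 0.10, the smallest that this design can give. This ratio comes from the FPKM given above and is not a further separation.

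Of the 8 receptor chains for the common gamma chain cytokines and TSLP, 3 were tested and none was called. At an unadjusted p-value under 0.05 there was 1, and limma-voom called none. The share called over all genes tested was 4.22%. IL7R, the IL7 receptor, had 10.8 ± 1.10 and 12.2 ± 1.14 FPKM (n = 3, S.D.), a log2 fold change of 0.18 with a 95% interval from -0.06 to 0.41. IL4R had 10.5 ± 0.605 and 8.26 ± 0.227 FPKM, a log2 fold change of -0.34. IL21R was near the filter, at 0.107 ± 0.0308 and 0.0941 ± 0.0216 FPKM. IL2RB and IL2RG, the chains through which IL15 signals, were chosen once their values had been seen and lay under the filter, with at most 13 and 3 fragments in any library. Of the 5 other ligands of this group (IL2, IL4, IL9, IL21 and TSLP), none reached the filter, with IL2 listed at 0 in every library and IL4 and TSLP at no more than 3 and 6 fragments.

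IL1A and IL1B lie side by side on chromosome 2 and encode the founding ligands of the IL-1 family. IL1B (ENSG00000125538), from 112829751 to 112836903, was at 11.0, 12.7 and 11.1 FPKM in the untreated libraries and at 8.68, 9.76 and 9.17 FPKM after IFNβ. The treated libraries were all lower. The log2 fold change was -0.33 (95% interval -0.50 to -0.16, limma adjusted p = 0.013), short of the fold threshold.

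IL1A (ENSG00000115008), from 112773915 to 112784590, was at 1.87, 1.77 and 1.84 FPKM in the untreated libraries and at 1.96, 2.38 and 1.82 FPKM after IFNβ. It was the single gene of the 10 whose groups overlapped. Its log2 fold change was 0.15 (95% interval -0.10 to 0.41, limma adjusted p = 0.32), on 86 to 122 fragments per library. The interval takes in no change as well as a rise of up to 0.41. The FPKM of IL1B divided by that of IL1A was 5.88, 7.20 and 6.05 in untreated cells and 4.42, 4.10 and 5.04 after IFNβ, without overlap (exact two-sided permutation p = 0.10, the smallest possible). This ratio too comes from FPKM already given and is not a further separation.

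IL18 (ENSG00000150782), on chromosome 11 from 112143251 to 112164117, had the lowest level of the 10 genes in both groups. It was at 0.134, 0.103 and 0.105 FPKM in the untreated libraries and at 0.723, 0.446 and 0.505 FPKM after IFNβ. Every treated library was above the untreated ones, on 8, 8 and 9 fragments against 58, 29 and 38. The mean rose 4.88-fold, with a log2 fold change of 1.60 (SE 0.23, limma adjusted p = 0.0024) that was 0.48 with a pseudocount of 1 and 2.17 with 0.01.

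IL18BP (ENSG00000137496), also on chromosome 11, from 71998541 to 72005715, was at 1.11, 1.17 and 1.20 FPKM in the untreated libraries and at 2.66, 2.70 and 2.75 FPKM after IFNβ. The libraries of each group were close together and the groups far apart. The mean rose 2.33-fold, with a log2 fold change of 1.16 (SE 0.06, limma adjusted p = 4.1e-05). Its exons share 675 bases with NUMA1 on the other strand, which was at 9.49 ± 0.245 and 9.77 ± 0.0540 FPKM (n = 3, S.D.), above IL18BP in both groups. Since the strand setting is not given, reads from these shared bases cannot be told apart. Their part in the level and the fold change of IL18BP was not tested. The ISRE core printed above belongs to this gene, and its part in the rise was not tested.

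The FPKM listed for the decoy stayed above that of its ligand in every library, and the ratio between them was lower after IFNβ. The FPKM of IL18BP divided by that of IL18 was 8.24, 11.3 and 11.4 in untreated cells and 3.68, 6.05 and 5.45 after IFNβ, without overlap (exact two-sided permutation p = 0.10, the smallest possible). Being made from FPKM already given, the ratio is not a further separation. The few IL18 fragments of the untreated libraries limit the precision of this ratio. The bases that IL18BP shares with NUMA1 limit what its level, and so the ratio, can be taken to mean.

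**Figure D3:**
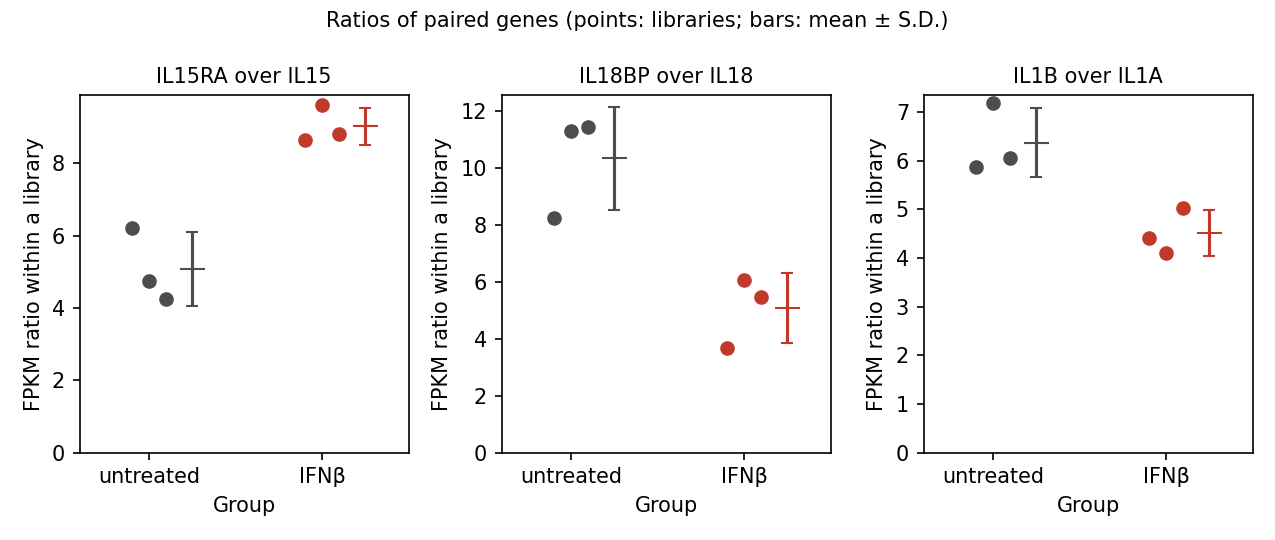
FPKM of IL15RA divided by IL15, IL18BP divided by IL18 and IL1B divided by IL1A within each library, with a point per library and the mean ± S.D. beside it (n = 3 per group, axes from 0). The first ratio is higher and the other 2 are lower after IFNβ, with no overlap between the groups. The ratios come from the FPKM of the same genes and are not further separations.

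**Figure D4:**
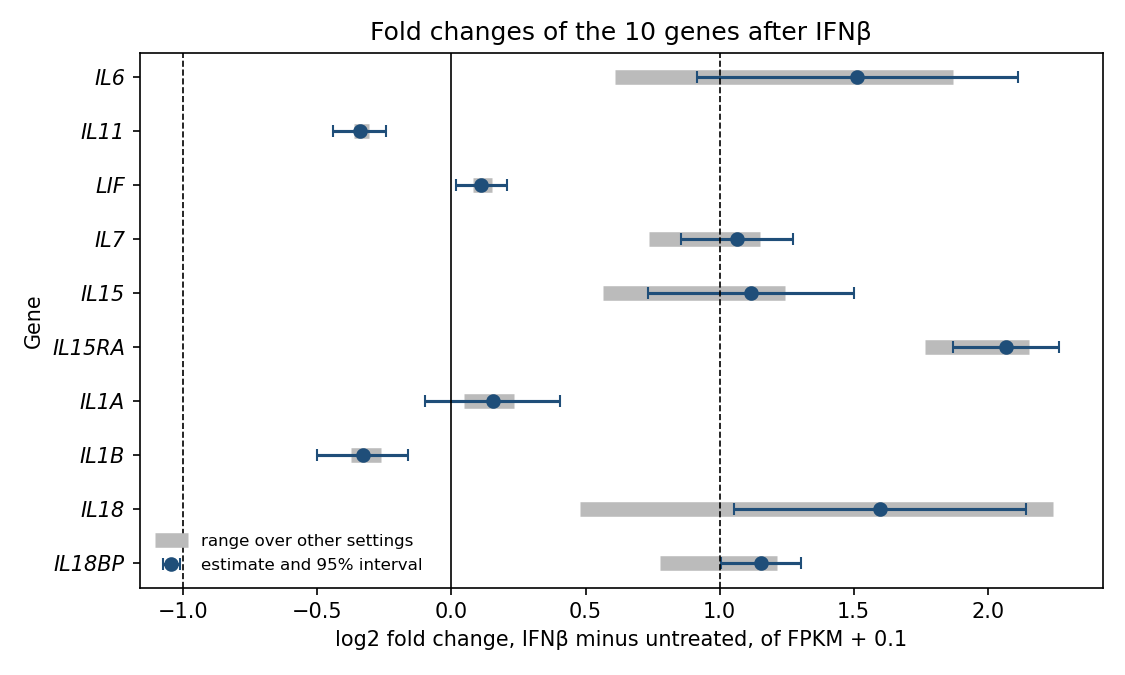
Log2 fold changes of the 10 genes (IFNβ minus untreated, FPKM + 0.1) with 95% intervals from limma, over gray bars for the range in the other settings. Dashed lines mark the fold threshold of 1 in either direction; 6 estimates lie beyond it, and IL15RA alone stays beyond it in every setting.

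Among 8 receptor chains for the IL-1 and IL-18 ligands, 5 were tested and none was called. At an unadjusted p-value under 0.05 there were 3, and limma-voom called none. The shares over all genes tested were 4.22% called and 32.7% with an adjusted p-value under 0.05. IL1RAP, the shared accessory chain, had 5.92 ± 0.444 and 6.71 ± 0.482 FPKM, IL18R1, the IL-18 binding chain, had 1.02 ± 0.0533 and 1.08 ± 0.217 FPKM, and SIGIRR, an inhibitory family member, had 1.47 ± 0.147 and 1.11 ± 0.153 FPKM (n = 3, S.D.). Their adjusted p-values were 0.12, 0.83 and 0.061. The single chain with an adjusted p-value under 0.05 was IL1R1, the signalling receptor of IL-1α and IL-1β, with 0.289 ± 0.0435 and 0.521 ± 0.0593 FPKM (n = 3, S.D.) and no overlap, which was named after its values were seen. Its log2 fold change was 0.68 (limma adjusted p = 0.025), short of the fold threshold. Of 8 other IL-1 family ligands and antagonists only IL36B was tested, at 0.654 ± 0.154 and 0.825 ± 0.134 FPKM. IL1RN, the IL-1 receptor antagonist, was under the filter with fragment numbers of 3, 5 and 0 without treatment and of 19, 14 and 13 with it, and IL36G had at most 7 fragments.

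Genes that process IL-1β and IL-18 formed a list of 12, of which 10 were tested. Of these, 3 were called higher and none lower, against 3.49% and 0.739% of all genes tested. An adjusted p-value under 0.05 was found for 8, against 32.7% of all genes tested. CASP1, which cuts both precursors, rose from 1.27 ± 0.0311 to 7.85 ± 0.215 FPKM (n = 3, S.D.), with a log2 fold change of 2.54 (limma adjusted p = 2.4e-07). AIM2, a cytosolic DNA sensor that activates caspase-1, rose from 0.746 ± 0.184 to 10.6 ± 0.426 FPKM, a log2 fold change of 3.69. GSDMD, whose cut product forms the pores through which the mature cytokines leave, rose from 6.36 ± 0.111 to 15.1 ± 0.807 FPKM. PYCARD, the adaptor between sensor and caspase, was under the filter with at most 5 fragments in any library and was picked out after its values were seen. The calpains CAPN1 and CAPN2, known for cutting the IL-1α precursor, were abundant and not called. CAPN1 had 19.0 ± 0.113 and 21.0 ± 0.0970 FPKM, a log2 fold change of 0.14 (limma adjusted p = 0.0016). CAPN2 had 100.3 ± 1.04 and 79.0 ± 0.980 FPKM, a log2 fold change of -0.34 (limma adjusted p = 3.5e-05). Both passed the p-value threshold and not the fold threshold.

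In the other cytokine lists 2 further genes were called, where 4.22% of all genes tested were called. Of 10 other ligands of the IL-6 and IL-12 families, 6 were tested and IL23A, a subunit of IL-23, rose from 0.327 ± 0.0762 to 1.91 ± 0.305 FPKM, a log2 fold change of 2.24 (SE 0.18, limma adjusted p = 0.00023) on 10 or 11 fragments per untreated library. IL12A, a subunit of IL-12 and IL-35, had 2.86 ± 0.258 and 3.74 ± 0.387 FPKM (log2 fold change 0.37), and CLCF1, another gp130 family ligand, had 5.31 ± 0.139 and 5.70 ± 0.303 FPKM (n = 3 per group for these genes, S.D.). Of 10 growth and colony-stimulating cytokines, 6 were tested, with 1 called higher by the main rule and 2 by limma-voom. CSF1, the macrophage growth factor, was the gene called by the main rule. It rose from 26.3 ± 0.680 to 60.4 ± 0.908 FPKM, a log2 fold change of 1.20 (limma adjusted p = 5.3e-07). IL24 had 14.4 ± 1.95 and 26.9 ± 2.12 FPKM, a log2 fold change of 0.90 that fell short of the fold threshold. KITLG, the stem cell factor, had 6.02 ± 0.684 and 6.32 ± 0.358 FPKM. CSF1 was thus more abundant per length than any of the 10 genes in both groups.

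Over the 8 companion lists, 35 of 67 genes were tested, of which 5 were called higher and none lower. Of all genes tested, 3.49% were called higher and 0.739% lower. The median log2 fold change of the 35 was 0.31. By the adjusted p-value alone 14 were higher and 4 lower, against 15.2% and 17.5% of all genes tested. At an unadjusted p-value under 0.05, 16 were higher and 5 lower, and limma-voom called 6 higher and none lower. Shares of all genes at an unadjusted p-value or by limma-voom are not given here, for these counts or those of single lists. All 22 receptor chains counted together gave 12 tested genes and no call, with 7 at an unadjusted p-value under 0.05. By the adjusted p-value alone 5 of the 12 passed, against 32.7% of all genes tested. Since only 4.22% of all genes tested were called, no call among 12 genes does not set the receptor chains apart.

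**Figure D5:**
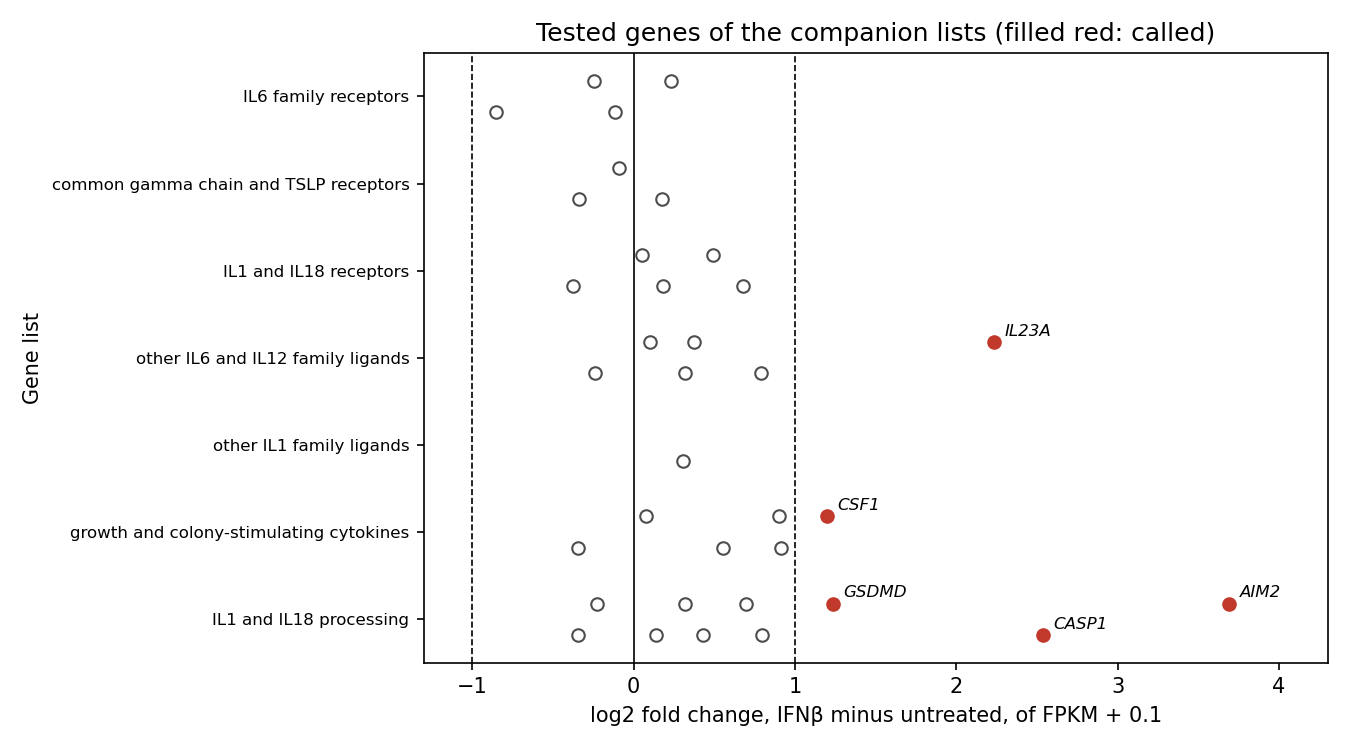
Log2 fold changes (IFNβ minus untreated, FPKM + 0.1) of the 35 tested genes in 7 of the 8 companion lists, the list of other common gamma chain ligands having no tested gene. Filled red points are called genes and dashed lines mark the fold threshold. AIM2, CASP1, IL23A, GSDMD and CSF1 lie beyond it. None of the 12 tested receptor chains does, where 4.22% of all genes tested were called.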

How the data were processed

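RNA of 3 untreated and 3 IFNβ-treated libraries of HT1080 cells was sequenced as paired ends after mRNA enrichment. The authors deposited 1 FPKM value per Ensembl gene and library, with no pooling of replicates. The submitters' processing notes list fastp, HISAT2, StringTie and the build GRCh38. Versions, annotation and strand setting are not given in the sources used here.

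IDs were matched to symbols through a table of gene names, and locations and exon overlaps come from GENCODE release 29, in which 4436 of the IDs are missing. The values of each gene were whole multiples of the value of 1 fragment (relative tolerance 1e-07), found for all 35303 genes above 0, and gave the fragments per library. Replicate pairs of a group differed by more than counting error (chi-square per degree of freedom between 1.78 and 3.39). Intervals cover the spread between libraries, and fragments without molecular identifiers are not independent molecules.

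Groups were compared with limma 3.58.1 (R 4.3.3; lmFit and eBayes with trend) on log2(FPKM + 0.1) where the mean over all libraries reached 0.1 FPKM, with Benjamini-Hochberg adjustment. The study's methods name a count model. Here the test was made on the deposited FPKM, and the recovered fragments were tested with limma-voom as an alternative. Other steps used Python 3.11.15 (pandas 2.3.3, scipy 1.17.1). The procedure was tested on simulated data. Alternatives were pseudocounts, filters, scalings, eBayes without trend, a replicate block, single libraries left out, no fold threshold and limma-voom. The members, the lists and the rule for named genes (all members, and of each list the called genes and the 3 with the highest mean FPKM) were chosen with earlier results of these data known. Promoter windows are those of RefSeq on GRCh38.p14. Protein sequences were not analysed here. A single gene of the response check is not reported here.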

Additional observations from a re-analysis of the deposited data

How the results depend on the processing

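Of the 10 genes, 6 were called higher. With a pseudocount of 1 there was 1, and with the filter raised to 1 FPKM there were 3, since IL6, IL15 and IL18 were then not tested. Without the fold threshold 2 of the 10 were lower, and of the companion list genes 14 were higher and 4 lower. Of all genes tested, 15.2% were then higher and 17.5% lower. With single libraries left out, 5 or 6 of the 10 were called higher and 0 lower, the 5 being without untreated replicate 1 (IL15 lost). Quantile normalization also gave 5 (IL7 lost). No setting reversed the direction of any of the 10 genes. The median over all genes moved most with quantile normalization, to -0.060 on the log2 scale, among the scalings tried. Same-numbered libraries of the 2 groups deviated together only weakly (correlations of 0.014, 0.023 and 0.031), although each correlated best with its own number, a hint from the data and not from the design. With the replicate number as a block, 6 of the 10 genes and 5 companion list genes were called higher and 0 lower, as without it. Levels near 0.1 FPKM rest on few fragments, which limits IL18, and to a lesser degree IL6, most.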
